A study of Mus musculus with 3 samples.

Results

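The miR-99/100 and miR-125 families were followed through 6 mature miRNAs of mouse osteoclast cultures: mmu-miR-99a-5p, mmu-miR-99a-3p, mmu-miR-99b-5p, mmu-miR-100-5p, mmu-miR-125a-5p and mmu-miR-125b-5p, written below without the species prefix. They were chosen by name, and all 6 have an entry among the 899 miRNAs of the small RNA tables. The cultures were mature osteoclasts (mOC), grown with M-CSF at 30 ng/mL and RANKL at 100 ng/mL for at least 72 h, preosteoclasts (pOC), grown with the same factors for 24 h, and bone marrow macrophages (BMM), grown with M-CSF at 50 ng/mL for 72 h. All came from primary marrow of C57BL/6 mice aged 11 weeks, and all received alendronate, a bisphosphonate drug, at 500 µM for 12 h to make the cells shed apoptotic bodies. The series title speaks of exosomes, and the labels do not say which vesicle fraction gave the RNA. With a single library for each group, no value has a replicate and no difference was tested. No column bears the name of BMM. The tables set mOC and pOC against a library headed R, a letter the labels do not spell out, so its counts were not used and only the authors' fold changes over it are given.

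A miRNA is cut from a hairpin whose 5p and 3p arms can each become a mature strand of about the same length. The strand that is loaded into an Argonaute protein pairs with target messages, mainly through its seed, which are bases 2 to 8. miR-99a, miR-99b and miR-100 share a seed and are known for repressing mTOR and other parts of growth signalling. miR-125a and miR-125b are the mammalian relatives of the worm miRNA lin-4 and are known for roles in blood stem cells and in macrophage activation. In human monocytes the cluster of miR-99b, let-7e and miR-125a has been described as induced during osteoclast differentiation, and miR-125b carried in matrix vesicles of mouse osteoblasts has been described as restraining osteoclast formation through Prdm1.

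The sequences show which members could act on the same targets and which could be confused in counting. They are RefSeq mature sequences (GRCm38.p6), written 5′ to 3′ with the seed in capitals, and all 6 members had a match.
miR-99a-5p: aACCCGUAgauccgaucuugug
miR-100-5p: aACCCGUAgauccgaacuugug
miR-99b-5p: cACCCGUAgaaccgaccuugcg
miR-125b-5p: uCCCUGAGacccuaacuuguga
miR-125a-5p: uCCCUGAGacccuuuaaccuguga
miR-99a-3p: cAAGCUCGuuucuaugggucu
The first 3 share the seed ACCCGUA and no other mature mouse miRNA of the RefSeq table has it. Counted from the 5′ end, miR-100-5p differs from miR-99a-5p at a single base, U16A, and miR-99b-5p differs from miR-99a-5p at 4 bases (A1C, U11A, U16C and U21C). The miR-125 5p strands share the seed CCCUGAG with miR-351-5p, miR-6367 and miR-6394 in the RefSeq table. miR-99a-3p is the opposite arm of the miR-99a hairpin and has another seed, AAGCUCG, which it shares with miR-99b-3p.

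The hairpins lie in 3 clusters, each with a miR-99/100, a let-7 and a miR-125 gene on the + strand (GRCm38, GENCODE). On chromosome 16, Mir99a (77598936 to 77599000) and Mir125b-2 (77646273 to 77646343) lie with Mirlet7c-1 in introns of the noncoding host gene Mir99ahg. On chromosome 9, Mir100 (41531425 to 41531504) and Mir125b-1 (41581926 to 41582002) lie with Mirlet7a-2 in introns of the noncoding gene 3110039I08Rik. On chromosome 17, Mir99b (17830188 to 17830257) and Mirlet7e lie in an intron of Spaca6, and Mir125a (17830812 to 17830879) overlaps an exon of it. The chromosome 17 cluster spans 692 bases, and the others span 47.4 kb on chromosome 16 and 50.6 kb on chromosome 9. miR-125b-5p is encoded identically by Mir125b-1 and Mir125b-2, so its reads cannot be divided between these genes.

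The mOC library held 7017707 assigned counts and the pOC library 5430426, and levels are given below as CPM, counts scaled to a total of 1000000. Intervals are exact binomial 95% intervals that reflect counting error alone and say nothing of variation from culture to culture. The markers of blood and myeloid cells fixed for this work (miR-142a and miR-223, both arms, and miR-155-5p) were all detected, with a summed level of 9757 CPM in mOC and 5991 CPM in pOC. Those of stromal cells (miR-143-3p, miR-145a-5p, both arms of miR-199a, miR-214-3p and miR-10b-5p) summed to 1237 CPM in mOC and 1391 CPM in pOC, and none of the 6 was at 0. Most of each sum was 1 strand. It was miR-142a-5p for blood and myeloid cells, at 7261 CPM in mOC and 5112 CPM in pOC. For stromal cells it was miR-199a-3p, at 953 CPM in mOC and 895 CPM in pOC, whose sequence and counts are also those of miR-199b-3p. Messenger RNA markers of osteoclasts were not measured in these tables.

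Most of the reads of both families came from 1 strand, miR-99a-5p. The 6 members together took 6.10% of the counts in mOC (6.09 to 6.12%) and 9.16% in pOC (9.14 to 9.19%), of which miR-99a-5p alone made up 5.54% in mOC (5.52 to 5.56%) and 8.73% in pOC (8.70 to 8.75%). It was the fifth most abundant miRNA of the mOC library and the second of the pOC library. The other 5 members together held 0.564% of the counts in mOC and 0.434% in pOC. Among the 3 strands with the seed ACCCGUA, miR-99a-5p outnumbered the scarcest, miR-100-5p, 134 to 1 in mOC and 165 to 1 in pOC.

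The order of levels was nearly the same in both libraries. miR-99b-5p came next after miR-99a-5p, with 17694 counts (2521 CPM) in mOC and 11552 counts (2127 CPM) in pOC. miR-125b-5p followed with 15586 counts (2221 CPM) in mOC and 7553 counts (1391 CPM) in pOC, and was the leading member of its family. miR-100-5p had 2904 counts (413.8 CPM) in mOC and 2877 counts (529.8 CPM) in pOC. miR-125a-5p had 2875 counts (409.7 CPM) in mOC and 1334 counts (245.7 CPM) in pOC. miR-100-5p and miR-125a-5p could not be ordered within counting error in mOC, where their ratio was 1.01 (0.959 to 1.06), whereas in pOC miR-100-5p had 2.16 times the counts (2.02 to 2.30). miR-99a-3p was the least abundant member, with 490 counts (69.8 CPM) in mOC and 258 counts (47.5 CPM) in pOC. The mature strands are 21 to 24 bases long, so length hardly enters these levels, but sequences also differ in how readily they enter a library, which was not tested.

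**Figure D1:**
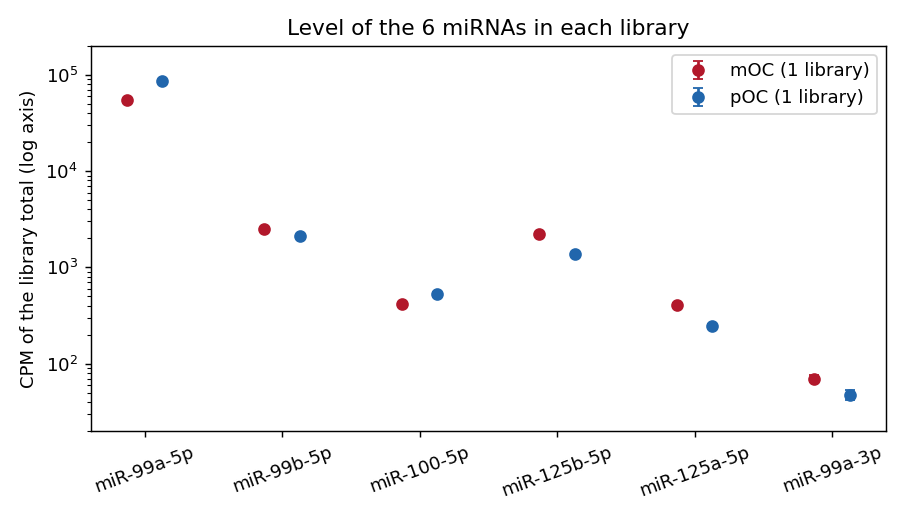
Level of each of the 6 miRNAs in the mOC and pOC libraries, in CPM of the library total on a log axis; bars are exact binomial 95% intervals of counting error. miR-99a-5p stands at 55393 CPM in mOC and 87280 CPM in pOC, at least an order of magnitude above every other member.

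The comparison of mOC with pOC set the families in the library of the later stage against that of the earlier stage. The vesicle fraction is not named, and how these levels relate to levels in the cells was not tested. The miR-125 5p strands were more abundant in mOC and the leading miR-99 strand was less abundant there, all by less than 2-fold. miR-99a-5p had 388735 counts in mOC and 473966 in pOC, which is 1.58-fold less in mOC after scaling (1.57 to 1.58; log2 ratio -0.66). miR-100-5p was 1.28-fold less abundant in mOC (1.22 to 1.35; log2 ratio -0.36). miR-99b-5p, with the same seed, stood on the other side, at 1.19-fold in mOC over pOC (1.16 to 1.21; log2 ratio 0.25).

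For the miR-125 5p strands the difference was of similar size in both. miR-125a-5p was 1.67-fold more abundant in mOC (1.56 to 1.78; log2 ratio 0.74) and miR-125b-5p 1.60-fold (1.55 to 1.64; log2 ratio 0.68). The number of miR-125b-5p counts for each miR-125a-5p count was 5.42 in mOC (5.21 to 5.64) and 5.66 in pOC (5.34 to 6.01). These intervals overlap. The 3p strands of the miR-125 hairpins did not follow. miR-125a-3p was 1.96-fold less abundant in mOC (1.77 to 2.16) and miR-125b-2-3p 1.44-fold less (1.40 to 1.48). The scarce miR-125b-1-3p had a ratio of mOC over pOC of 1.27 (0.754 to 2.18). miR-351-5p, which has the miR-125 seed but another origin on chromosome X, had 1435 counts in mOC and 1084 in pOC, a ratio of 1.02 (0.946 to 1.11). miR-99a-3p was 1.47-fold more abundant in mOC (1.26 to 1.72; log2 ratio 0.55), opposite to the 5p strand of its own hairpin.

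None of the 6 members met the rule for a difference, which asked for at least 2-fold, 10 counts over both libraries and an interval without 1. Of all 899 miRNAs, 5.45% met it as higher in mOC and 7.68% as lower. Only 560 of the 899 had the 10 counts that the rule asks for, and the 49 higher and 69 lower ones all came from these. When the libraries were scaled by the authors' own constants instead of their totals, all log2 ratios moved up by 0.27, miR-125a-5p reached 1.01 and met the rule, and miR-100-5p lay at -0.08. With those constants 62.0% of the miRNAs that met the rule were higher in mOC, against 41.5% with the totals. The log2 fold changes of pOC over mOC in the authors' deposited table, the reverse direction, lay near the ratios from the totals. They were -0.75 for miR-125a-5p and 0.35 for miR-100-5p, and none of the 6 members was listed in that comparison. The median log2 ratio of the 6 members was 0.40, with 4 of 6 above 0, beside a median of 0.04 over the 560 miRNAs with at least 10 counts. The summed counts of the 6 ran the other way, with a log2 ratio of -0.59, and that sum was decided by miR-99a-5p: without it the other 5 members were together 1.30-fold higher in mOC (1.28 to 1.32).

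**Figure D2:**
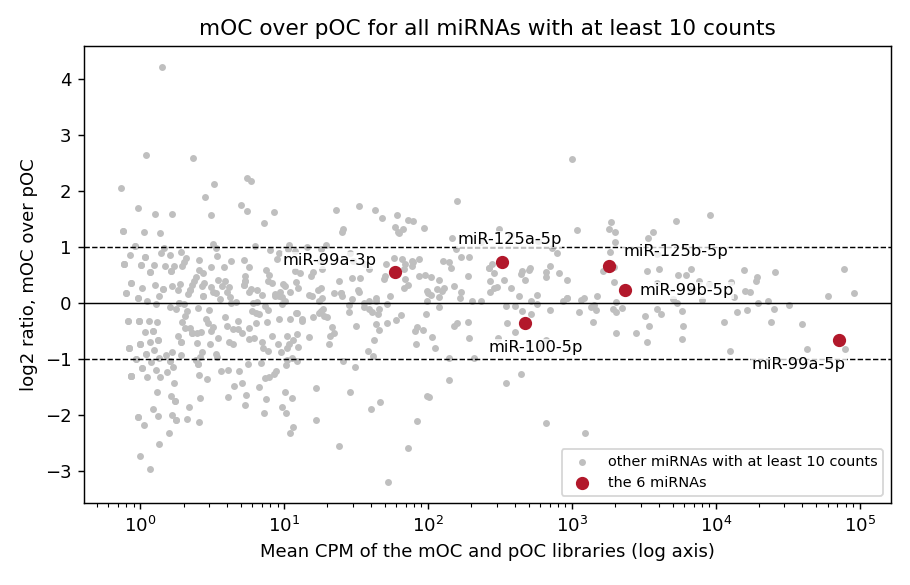
Log2 ratio of mOC over pOC against the mean level in CPM (log axis) for the miRNAs with at least 10 counts over both libraries; dashed lines mark a 2-fold difference. The 6 miRNAs lie between -0.66 for miR-99a-5p and 0.74 for miR-125a-5p, inside the dashed lines.

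The ratio of the arms of a hairpin, read within a library, does not depend on how libraries are scaled. Between mOC and pOC it differed beyond counting error in Mir125a, Mir99b and Mir99a, and so did the ratio of miR-125b-5p to the 3p strand of Mir125b-2, not always in the same direction. Because miR-125b-5p counts pool Mir125b-1 and Mir125b-2, that last ratio is no arm ratio of a single hairpin. The 3p sequences of Mir125b-2 and Mir125a are shown because they outnumbered or came nearest to their 5p strands, both in pOC.
miR-125b-2-3p: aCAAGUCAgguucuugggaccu
miR-125a-3p: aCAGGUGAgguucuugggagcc
The order of miR-125b-5p and miR-125b-2-3p differed between the libraries. miR-125b-2-3p had 11699 counts in mOC and 13029 in pOC, so that miR-125b-5p held 1.33 counts for each count of this 3p strand in mOC (1.30 to 1.36) but only 0.580 in pOC (0.563 to 0.596). In pOC this 3p strand, usually the one discarded, thus outnumbered the 5p strand of both genes together. Which strand of Mir125b-2 itself was ahead in mOC cannot be read from these counts, since an unknown part of the 5p reads came from Mir125b-1.

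Mir125a, Mir99b and Mir99a had the 5p strand ahead in both libraries. In Mir125a, whose 3p strand had 659 counts in mOC and 999 in pOC, the 5p to 3p ratio was 4.36 in mOC (4.01 to 4.76) and 1.34 in pOC (1.23 to 1.45). In Mir99b, whose 3p strand had 3580 counts in mOC and 4371 in pOC, it was 4.94 in mOC (4.77 to 5.12) and 2.64 in pOC (2.55 to 2.74). Mir99a went the other way, with 793 counts of the 5p strand for each of the 3p strand in mOC (726 to 869) and 1837 in pOC (1626 to 2084). Mir99a was also by far the most one-sided of these hairpins. The arm ratio in mOC was thus 3.27 times that in pOC for Mir125a (2.90 to 3.68), 2.30 times for pooled miR-125b-5p over miR-125b-2-3p (2.21 to 2.39), 1.87 times for Mir99b (1.78 to 1.97) and 0.432 times for Mir99a (0.371 to 0.502), with large-sample intervals of counting error.

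**Figure D3:**
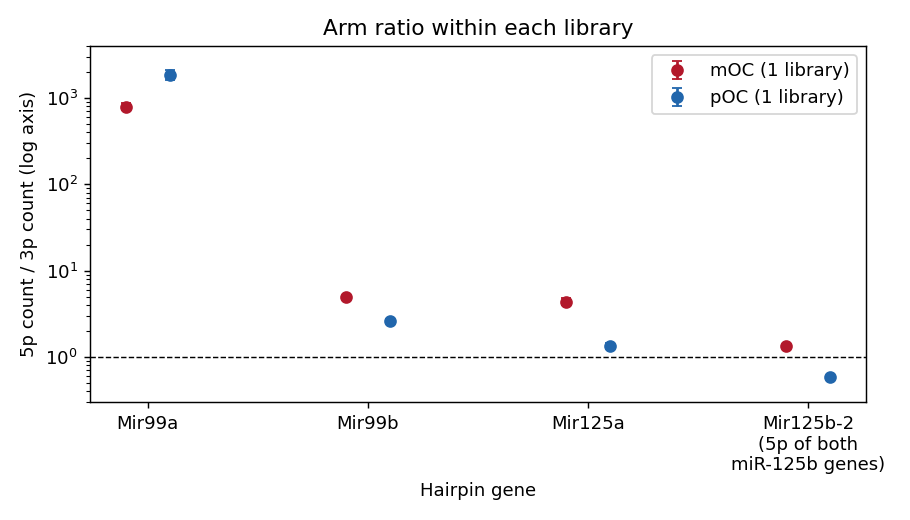
Counts of the 5p strand divided by counts of the 3p strand (log axis) for 4 hairpins in the mOC and pOC libraries, with the 5p counts at Mir125b-2 pooled over Mir125b-1 and Mir125b-2; bars are exact binomial 95% intervals and the dashed line marks equal counts. This pooled ratio lies above the line in mOC (1.33) and below it in pOC (0.580), and Mir99a is the hairpin whose ratio is lower in mOC.

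Shifts of this size were seen in other hairpins as well. Among 105 hairpins with both arms in the RefSeq table and at least 50 counts of the lesser arm over both libraries, the 5p to 3p ratio was at least 2-fold higher in mOC with an interval without 1 in 14.3% and at least 2-fold lower in 10.5%. Mir125a and, with pooled 5p counts, Mir125b-2 are among the higher ones, Mir99a is among the lower ones, and Mir99b, at 1.87-fold, is in neither. The fifth hairpin of the families in this set, Mir125b-1, had 41 counts of miR-125b-1-3p in mOC and 25 in pOC, too few to place its ratio. The median change of the log2 ratio over the 105 hairpins was 0.13. These hairpins are not all separate measures. Mir199a-1 and Mir199a-2 share both mature strands and enter with the same counts, as do Mir9-1, Mir9-2 and Mir9-3. Some others share the pooled counts of an arm, as Mir125b-1 and Mir125b-2 do. miR-125b-2-3p outnumbered miR-125b-1-3p 285 to 1 in mOC (210 to 398) and 521 to 1 in pOC (353 to 806). miR-100-3p had no entry among the 899 miRNAs.

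**Figure D4:**
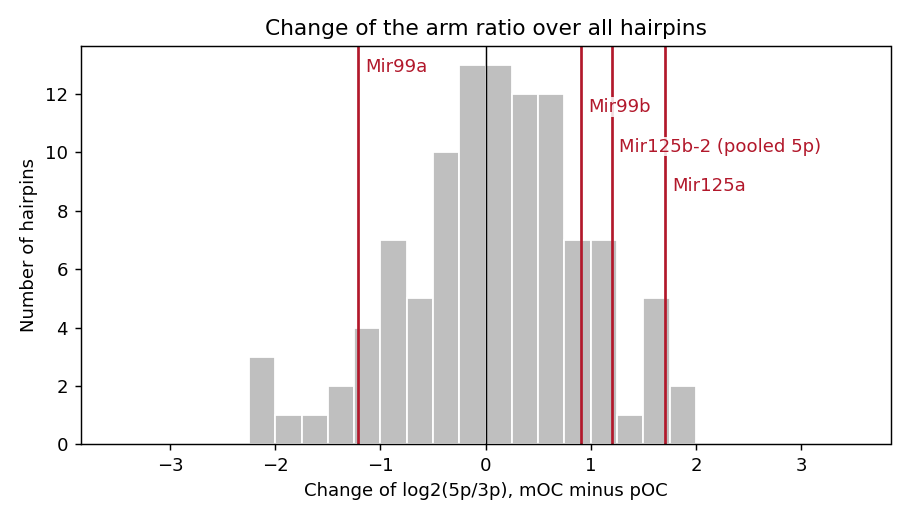
Histogram over 105 hairpins of the change in log2(5p/3p), mOC minus pOC; red lines mark Mir99a, Mir99b, Mir125b-2 (5p counts pooled over both miR-125b genes) and Mir125a. Mir99a lies at -1.21 and the others at 0.90, 1.20 and 1.71, all within the range of the other hairpins.

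Counts of the 5p strands of 1 cluster did not keep a fixed ratio to each other, though some of these strands also come from genes elsewhere. On chromosome 16, miR-99a-5p had 2.48 counts for each count of let-7c-5p in mOC (2.46 to 2.49) and 5.41 in pOC (5.37 to 5.45). let-7c-5p, a member of the let-7 family that accumulates in differentiated cells, had 156961 counts in mOC and 87570 in pOC, 1.39-fold more in mOC (1.38 to 1.40), and is also encoded by a second gene on chromosome 15. The other strand of its hairpin in this cluster, let-7c-1-3p, is encoded there alone. It had 117 counts in mOC and 136 in pOC, a ratio of 0.666 (0.515 to 0.859). Among the other strands encoded only in this cluster, the ratio of mOC over pOC was 0.635 for miR-99a-5p (0.632 to 0.637). For miR-125b-2-3p it was 0.695 (0.678 to 0.712). miR-99a-3p went the other way, at 1.47 (1.26 to 1.72).

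On chromosome 17, where 3 hairpins lie within 692 bases, let-7e-5p had 3121 counts in mOC and 956 in pOC, 2.53-fold more in mOC (2.35 to 2.72), which met the 2-fold rule. Its 5p neighbours differed less, at 1.67-fold for miR-125a-5p and 1.19-fold for miR-99b-5p. The 3p strands of these hairpins were not higher in mOC. miR-125a-3p was 1.96-fold less abundant there (1.77 to 2.16) and miR-99b-3p 1.58-fold less (1.51 to 1.65). let-7e-3p had 44 counts in mOC and 39 in pOC, a ratio of 0.873 whose interval includes 1 (0.554 to 1.38). miR-99b-5p held 5.67 counts for each of let-7e-5p in mOC (5.46 to 5.89) and 12.1 in pOC (11.3 to 12.9). On chromosome 9, miR-100-5p held 0.152 counts for each of let-7a-5p in mOC (0.146 to 0.158) and 0.414 in pOC (0.396 to 0.433). let-7a-5p has further genes elsewhere, and let-7a-2-3p, the strand proper to this cluster, had no entry among the 899 miRNAs. Of the 5 let-7 strands measured from the clusters, let-7a-5p and let-7e-5p met the rule as higher in mOC and none as lower. The shares over all 899 miRNAs were 5.45% higher and 7.68% lower.

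Against the library headed R, miR-99a-5p and miR-100-5p stood highest of the 6 members. In the authors' deposited table, miR-99a-5p had a log2 fold change of 1.43 in mOC over R and 2.13 in pOC over R. miR-100-5p followed in the authors' deposited table with 1.11 in mOC over R and 1.51 in pOC over R. Those were the members the authors' deposited table listed as higher, 2 of 6 in each comparison, the lists being cut at 2-fold and a p-value under 0.05. Of all miRNAs, the authors' deposited table listed 5.78% as higher and 6.23% as lower in mOC over R, and 6.56% as higher and 4.12% as lower in pOC over R. None of the 6 was listed as lower in the authors' deposited table. The p-values cannot rest on replicates, since each library was alone in its group.

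The remaining members were below that threshold. miR-99b-5p had 0.81 in mOC over R and 0.61 in pOC over R in the authors' deposited table. The miR-125 strands stood apart from it in pOC: miR-125b-5p had 0.96 in mOC over R and 0.32 in pOC over R in the authors' deposited table, and miR-125a-5p had 0.93 in mOC over R and 0.23 in pOC over R. miR-99a-3p had 0.44 in mOC over R and -0.08 in pOC over R in the authors' deposited table. The median over the 6 was 0.94 in mOC over R and 0.47 in pOC over R, from the authors' deposited table, beside 0.01 in mOC over R and 0.10 in pOC over R for the 560 miRNAs with at least 10 counts. Both comparisons share the library R, so they are not independent of each other.

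**Figure D5:**
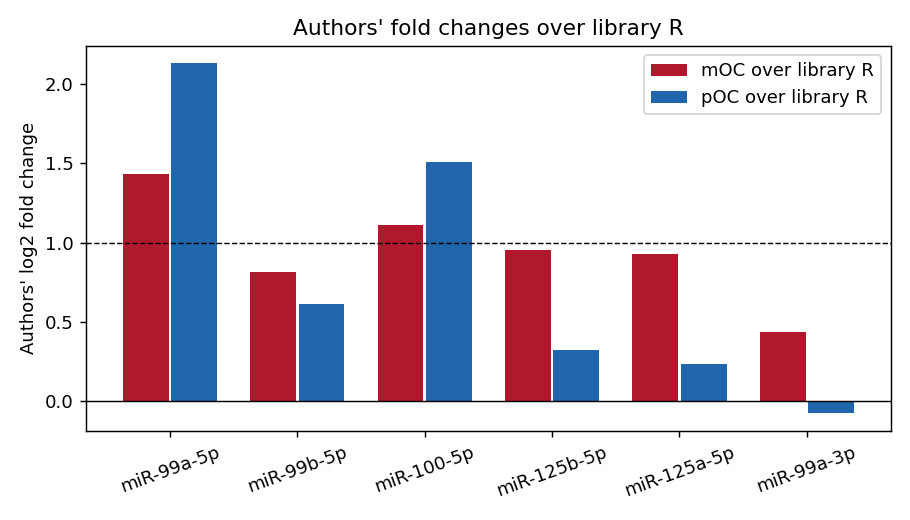
Log2 fold changes over library R from the authors' deposited table for the 6 miRNAs, mOC over R and pOC over R; the dashed line marks the 2-fold threshold. miR-99a-5p and miR-100-5p lie above the line in both comparisons and the other 4 in neither.

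The 3p strands behaved differently from the 5p strands against R. In the authors' deposited table, miR-125b-2-3p had -0.05 in mOC over R and 0.52 in pOC over R, and miR-125a-3p had -0.48 in mOC over R and 0.53 in pOC over R. miR-99b-3p had 0.12 in mOC over R and 0.82 in pOC over R in the authors' deposited table. Taken as the 5p value minus the 3p value within each of the authors' comparisons, the log2 arm ratio over R was 1.41 in mOC and -0.29 in pOC for Mir125a, 1.003 in mOC and -0.197 in pOC for pooled miR-125b-5p over miR-125b-2-3p, and 0.69 in mOC and -0.21 in pOC for Mir99b. In these 3 cases the ratio of pOC was therefore nearer to that of R than the ratio of mOC was. For Mir99a the value was 0.995 in mOC and 2.21 in pOC. miR-125b-1-3p, with few counts, was the only arm of these hairpins listed as lower in the authors' deposited table, at -1.14 in mOC over R and -1.44 in pOC over R.

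The near identity of miR-99a-5p and miR-100-5p touches the values of miR-100-5p. Its counts equalled 0.747% of those of miR-99a-5p in mOC and 0.607% in pOC, so a misread of base 16 in under 1% of miR-99a-5p reads would give as many. The ratio of miR-99a-5p to miR-100-5p was 134 in mOC (129 to 139) and 165 in pOC (159 to 171). How the authors treated mismatched reads is not given in the sources used here, and the part of misread miR-99a-5p in the miR-100-5p counts was not tested. The other paralogues are less alike, and miR-99b-5p differs from miR-99a-5p at 4 bases.

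The miRNAs whose pattern over R was most like that of miR-99a-5p were sought among 170 others with at least 1000 counts over mOC and pOC, by the Euclidean distance between the pairs of log2 fold changes in the authors' deposited table, over 3 libraries. The closest 5 were miR-96-5p (distance 0.60), miR-100-5p (0.70), miR-183-5p (0.80), miR-155-5p (0.87) and miR-182-5p (1.01). The other members ranked lower, miR-99b-5p at place 11 (distance 1.64), miR-125b-5p at 19 (1.87) and miR-125a-5p at 22 (1.96). None of the closest 5 matched the height of miR-99a-5p in pOC over R, where miR-96-5p had 1.53 in the authors' deposited table.

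Markers of other cell types and sources also differed between the same libraries. Over all 899 miRNAs, 7.68% met the rule as lower in mOC and 5.45% as higher. miR-122-5p, the marker of liver and serum, had 409.8 CPM in mOC and 2042 CPM in pOC and met the rule as lower in mOC. The 3 erythroid markers summed to 245.5 CPM in mOC and 670.5 CPM in pOC, and 2 of them met the rule as lower. The 2 endothelial markers summed to 95.05 CPM in mOC and 152.7 CPM in pOC, and neither met it. Stromal cells are also known to express miR-99a, miR-100 and miR-125b. Of the 6 stromal markers, 4 met the rule as lower in mOC than in pOC, miR-143-3p with 222 counts in mOC and 738 in pOC, miR-214-3p with 20 counts in mOC and 63 in pOC, miR-145a-5p with 31 in mOC and 61 in pOC, and miR-10b-5p with 553 in mOC and 1102 in pOC. miR-199a-3p (6687 counts in mOC, 4862 in pOC) and miR-199a-5p (1168 counts in mOC, 730 in pOC) were within 2-fold. Of the 5 blood and myeloid markers, miR-142a-3p and miR-223-3p met the rule as higher in mOC and none as lower. Against R, the authors' deposited table listed both arms of miR-223 as lower in mOC and in pOC. It listed miR-155-5p as higher in both, and miR-142a-3p as higher in mOC over R alone. The part of cell makeup, or of RNA from other sources, in the levels of the families was not tested, and more cells of a type cannot be told apart from more of a miRNA per cell.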

How the data were processed

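The authors deposited raw read counts per mature miRNA, per the file headers, in 9 tables of 3 pairwise comparisons. Their normalised counts, handled as a score, were also deposited and equal the raw count over a library constant (5139860 for mOC, 4803435 for pOC), times 1000000. The other columns give, per the file headers, the authors' fold change (as log2 and as a ratio) and a p-value with no adjustment, and every miRNA in their lists of higher and lower ones, and no other, passed 2-fold with p under 0.05. FastQC, HISAT2, StringTie and GRCm38 appear in the submitters' processing notes. Not given in the sources used here are the kit, trimming, annotation release and handling of reads with several matches. Both groups of miRNAs with identical sequence carry identical counts, so a shared read appears to be listed under each name.

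Columns were matched to samples by name (POC to pOC, OC to mOC). R matched no sample. The tables have 36 per-sample columns, of which 32 were left aside (12 headed R, the rest repeats). Counts were scaled to library totals, and the log2 ratio of mOC over pOC used a pseudocount of 1 count. Ratio intervals are Clopper-Pearson 95% intervals of counting error, and without molecular identifiers the reads of a library may be PCR copies of fewer molecules. A count of 0 allows 0.427 CPM in mOC and 0.552 CPM in pOC (3 counts). The script was tested on simulated data. Alternatives were edgeR 4.0.16 TMM, DESeq2 1.42.0 size factors, the authors' constants, reduced totals, a pseudocount of 0.5 and other count minimums. Python 3.11.15 and scipy 1.17.1 were used. The members, lists and the rule for named miRNAs (the members, their other arms, cluster neighbours, seed sharers, 5 closest patterns and markers) were chosen with earlier results of these data known.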

Additional observations from a re-analysis of the deposited data

How the results depend on the processing

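With 1 library per group nothing here measures the spread between cultures, and depth limits only the scarce strands, miR-125b-1-3p first. The log2 ratio of the summed 6 members, -0.59 with the totals, was -0.58 with TMM, -0.59 with DESeq2 size factors, -0.31 with the authors' constants, -0.65 with totals without the 5 most abundant miRNAs and -0.63 with totals without the members. It was 0.38 without miR-99a-5p, a sum added after the data were seen. Each of the 6 members kept the sign of its own log2 ratio under the 6 alternatives of scaling and pseudocount. With the authors' constants miR-100-5p lay nearest to 0, at -0.08. Under the other alternatives miR-99b-5p lay nearest, at 0.18 to 0.25. The share of the 6 members was 9.78% in mOC and 15.4% in pOC when the most abundant other miRNAs were left out of the total, and 0.564% in mOC and 0.434% in pOC without miR-99a-5p. The rule was met by 118 miRNAs, by 75 where 50 counts in 1 library were required, and by 117 to 129 under the others. Adding 0.5 to both counts moved no arm or paralogue ratio reported beyond its interval. The 14.3% of hairpins with a higher and 10.5% with a lower arm ratio in mOC were 15.1% and 8.90% at a minimum of 10 counts and, of 45 hairpins, 9 and 3 at 500, both minimums added after the data were seen. No paired analysis was possible because each group has a single library.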
